A study of Mus musculus with 24 samples.

Results

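The genes described here are 10 members of the circadian clock: *Arntl*, *Clock*, *Npas2*, *Per1*, *Per2*, *Per3*, *Cry1*, *Nr1d1*, *Nr1d2* and *Dbp*. They were chosen by name, every array probe whose accession maps to one of them was taken, and all 10 were among the 27971 genes tested. They were read in whole kidneys of male mice, labelled young adult and by the study's methods about weaning age, 6 from control mice (*mgb*+/+) and 18 from megabladder mice (*mgb*-/-), a mutant line with a bladder that does not empty properly and kidneys obstructed from before birth. By ultrasound, from how much renal tissue was kept, 7 of the *mgb*-/- kidneys had mild, 5 moderate and 6 severe hydronephrosis. Mutant and control mice were matched for age. Whether each sample came from a separate mouse, or some mice gave a left and a right kidney, is not stated, so a p-value measures only the spread between these samples. The hour at which kidneys were taken is not given in the sources used here. A difference in a clock gene between groups or grades therefore cannot be told apart from a difference in that hour.

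In the clock, ARNTL (also called BMAL1) pairs with CLOCK or NPAS2 and switches on genes that carry E-boxes, among them the *Per* and *Cry* genes, *Nr1d1*, *Nr1d2* and *Dbp*. PER and CRY proteins then hold the activators back, while NR1D1 and NR1D2 (REV-ERB alpha and beta) repress *Arntl*, *Npas2* and *Cry1*, so that *Arntl* and *Dbp* peak at opposite times of day. The kidney runs this loop in most of its segments, where it times the transport of sodium and water, and *Per1* also answers within an hour or so to glucocorticoids and to acute signals.

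The start regions of the genes show the letters through which the loop is read. RefSeq (GRCm38.p6) gave 13 promoters of 300 bases, 250 before and 50 from the start site, for 9 of the 10 genes. They were searched on both strands for the E-box CACGTG (the same on both strands), the E'-box CACGTT, the D-box TTATGTAA or TTACGTAA that DBP binds, the core AGGTCA of the element that NR1D1 and NR1D2 bind (RORE, shared with other nuclear receptors) and the cAMP element TGACGTCA. An E-box was found in 2 of the 13 promoters, against 7.15% of 32851 mouse promoters of that length. An E'-box was found in 2 (4.68% of all), a D-box in 1 (1.06%), the RORE core in 4 (16.3%) and the cAMP element in 0 (1.79%). The 5 promoters below are examples of the motifs found, with each match in capitals and none overlapping another. The promoters of *Dbp* and *Npas2* and the other listed promoters of *Per1* and *Arntl* held no match in this window.
*Per1*, chr11:69098699-69098998, plus strand, an E-box from base -166 and a RORE core from base -137 of the start: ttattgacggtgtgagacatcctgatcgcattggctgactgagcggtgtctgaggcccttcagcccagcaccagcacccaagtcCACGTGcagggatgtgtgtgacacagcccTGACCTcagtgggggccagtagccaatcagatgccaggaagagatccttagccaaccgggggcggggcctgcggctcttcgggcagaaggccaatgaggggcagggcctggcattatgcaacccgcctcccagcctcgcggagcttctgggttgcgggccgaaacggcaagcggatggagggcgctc
*Cry1*, chr10:85185005-85185304, minus strand, an E'-box from base -79 and an E-box from base -60: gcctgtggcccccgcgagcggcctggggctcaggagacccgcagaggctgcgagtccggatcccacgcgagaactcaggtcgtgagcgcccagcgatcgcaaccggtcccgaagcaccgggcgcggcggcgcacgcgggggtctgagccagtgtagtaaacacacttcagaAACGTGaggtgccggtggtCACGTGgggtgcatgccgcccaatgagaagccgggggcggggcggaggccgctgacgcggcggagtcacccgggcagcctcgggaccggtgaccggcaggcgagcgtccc
*Nr1d1*, chr11:98775328-98775627, minus strand, an E'-box from base -28: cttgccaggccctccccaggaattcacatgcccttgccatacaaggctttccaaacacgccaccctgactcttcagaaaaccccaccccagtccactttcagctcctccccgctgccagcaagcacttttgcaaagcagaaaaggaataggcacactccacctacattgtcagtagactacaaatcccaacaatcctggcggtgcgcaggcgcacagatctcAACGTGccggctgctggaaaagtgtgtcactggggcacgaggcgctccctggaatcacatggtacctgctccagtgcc
*Per3*, chr4:151044616-151044915, minus strand, D-boxes from bases -205 and -158: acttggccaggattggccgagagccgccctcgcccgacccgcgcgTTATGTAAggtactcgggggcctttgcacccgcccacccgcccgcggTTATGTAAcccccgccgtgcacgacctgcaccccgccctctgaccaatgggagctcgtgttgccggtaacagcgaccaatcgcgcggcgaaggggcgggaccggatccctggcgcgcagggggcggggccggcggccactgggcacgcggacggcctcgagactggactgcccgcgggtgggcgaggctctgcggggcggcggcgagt
*Arntl*, chr7:113207261-113207560, plus strand, a RORE core from base 32 after the start: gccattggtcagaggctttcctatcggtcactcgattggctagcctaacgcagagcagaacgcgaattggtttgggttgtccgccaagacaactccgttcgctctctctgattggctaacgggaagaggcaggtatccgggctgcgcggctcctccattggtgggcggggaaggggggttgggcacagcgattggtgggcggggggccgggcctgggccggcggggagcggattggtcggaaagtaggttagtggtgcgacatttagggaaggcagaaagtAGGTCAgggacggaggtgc

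Each kidney had its own array, and intensities were put on a log2 scale relative to the 75th percentile of their array, so that 0 is that percentile and 1 unit is a doubling. Levels are compared only between kidneys for the same gene, since probes differ in brightness. The 24 arrays were spread over 3 slides (8 arrays a slide, 2 of them control and 6 *mgb*-/-), and 55.1% to 70.7% of probes stood well above background on an array. Of the 10 genes, 8 were well above background on all arrays, *Npas2* on 10 and *Cry1* on 16. *Dbp* had 2 probes, of which the brighter was used, and the others had 1. The kidney markers were high in all groups, with summed levels from 9.35 to 10.7 (9 of 9 measured). Severe replicate 5 stood apart with the lowest kidney sum of 9.35 and the highest leukocyte sum of 2.59 (5 of 6 measured), and mild replicate 4 and moderate replicate 1 had adrenal sums of 7.58 and 7.52 (4 of 5 measured) against -2.86 to 2.04 in the other kidneys. *Myocd*, the smooth muscle coactivator known to be lost from the *mgb*-/- bladder, was well above background on all 24 arrays and its ranges overlapped between groups, so it gave no check of the genotype.

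**Figure D1:**
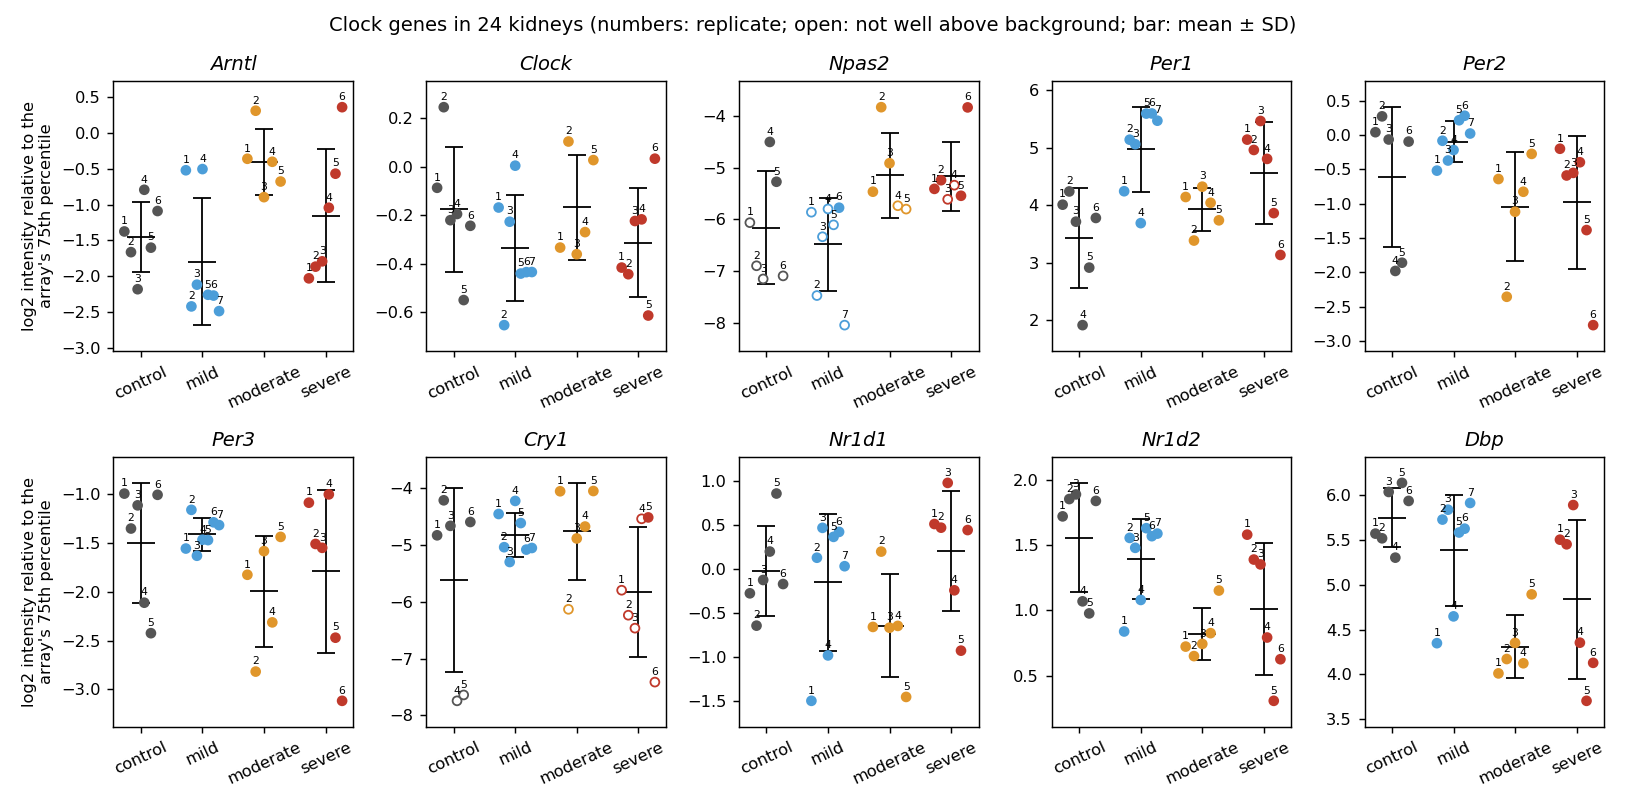
Each point is 1 kidney (6 control, 7 mild, 5 moderate, 6 severe), the vertical axis is log2 intensity relative to the array's 75th percentile, open points were not well above background, and bars are mean ± SD. *Dbp* in the 5 moderate kidneys lay between 4.01 and 4.89, below all 6 controls (5.30 to 6.14), while *Arntl* in mild replicates 1 and 4 (-0.52 and -0.51) lay above the other 5 mild kidneys (-2.48 to -2.12).

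Over all 18 *mgb*-/- kidneys, *Per1* was the member that passed the test against control, and it was higher. In the 6 control kidneys *Per1* ranged from 1.91 to 4.24 with a median of 3.74, and in the 18 *mgb*-/- kidneys from 3.13 to 5.60 with a median of 4.56. The groups overlapped, and 16 of the 18 *mgb*-/- kidneys lay above the control mean. The rise was 1.12 on the log2 scale (SE 0.37, 95% CI 0.35 to 1.89, limma adjusted p = 0.0473), or 2.17-fold. This made 1 of 10 members called, against 13.3% of all genes in either direction, and a call was an adjusted p under 0.05 over all genes. Within the 3 slides, the *mgb*-/- mean exceeded the control mean by 1.47, 0.96 and 0.93, but with slide as a block in the fit *Per1* did not pass (1.12, limma adjusted p = 0.0555), nor with the replicate block (1.07, limma adjusted p = 0.0841). Of 24 fits that left out 1 kidney, 7 kept the call (without control replicate 2, mild 4, moderate 2, 4 or 5, or severe 5 or 6) and 17 lost it, with adjusted p from 0.0235 to 0.163. The smallest rise, 0.81, came without control replicate 4, where *Per1* was lowest.

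The other repressors did not pass. *Per2* was at -0.66 ± 0.82 (SD, n = 18) in *mgb*-/- and -0.62 ± 1.02 (SD, n = 6) in control kidneys, a difference of -0.04 (95% CI -0.85 to 0.77, limma adjusted p = 0.962). *Per3* differed by -0.20 (95% CI -0.77 to 0.37, limma adjusted p = 0.676). *Cry1*, the partner of the PER proteins, differed by 0.47 (95% CI -0.58 to 1.52, limma adjusted p = 0.582) and was well above background in 4 of 6 control and 12 of 18 *mgb*-/- kidneys. The intervals for *Per2* and *Cry1* are wide, and a p that missed the threshold does not show that their levels were alike.

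*Dbp*, a transcription factor that carries the clock's timing to genes of metabolism and transport, was lower in *mgb*-/- kidneys on average without passing the test. Its level ranged from 5.30 to 6.14 (median 5.75) in controls and from 3.71 to 5.91 (median 4.77) in *mgb*-/- kidneys. In 15 of the 18 *mgb*-/- kidneys it lay below the control mean, and the upper end of the *mgb*-/- range overlapped the controls. The difference was -0.85 (SE 0.32, limma adjusted p = 0.077), and within the slides it was -0.69, -0.83 and -1.02. *Nr1d2* differed by -0.45 (SE 0.20, limma adjusted p = 0.123), below the control mean in 14 of 18 kidneys, and its close relative *Nr1d1* by -0.14 (SE 0.32, limma adjusted p = 0.806).

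For the activators the differences were 0.25 for *Arntl* (SE 0.39, limma adjusted p = 0.717), -0.11 for *Clock* (SE 0.11, limma adjusted p = 0.573) and 0.49 for *Npas2* (SE 0.47, limma adjusted p = 0.527). *Clock* varied least, from -0.65 to 0.24 over all 24 kidneys. Over the 10 members the median difference was -0.07, beside 0.01 over all genes tested.

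**Figure D2:**
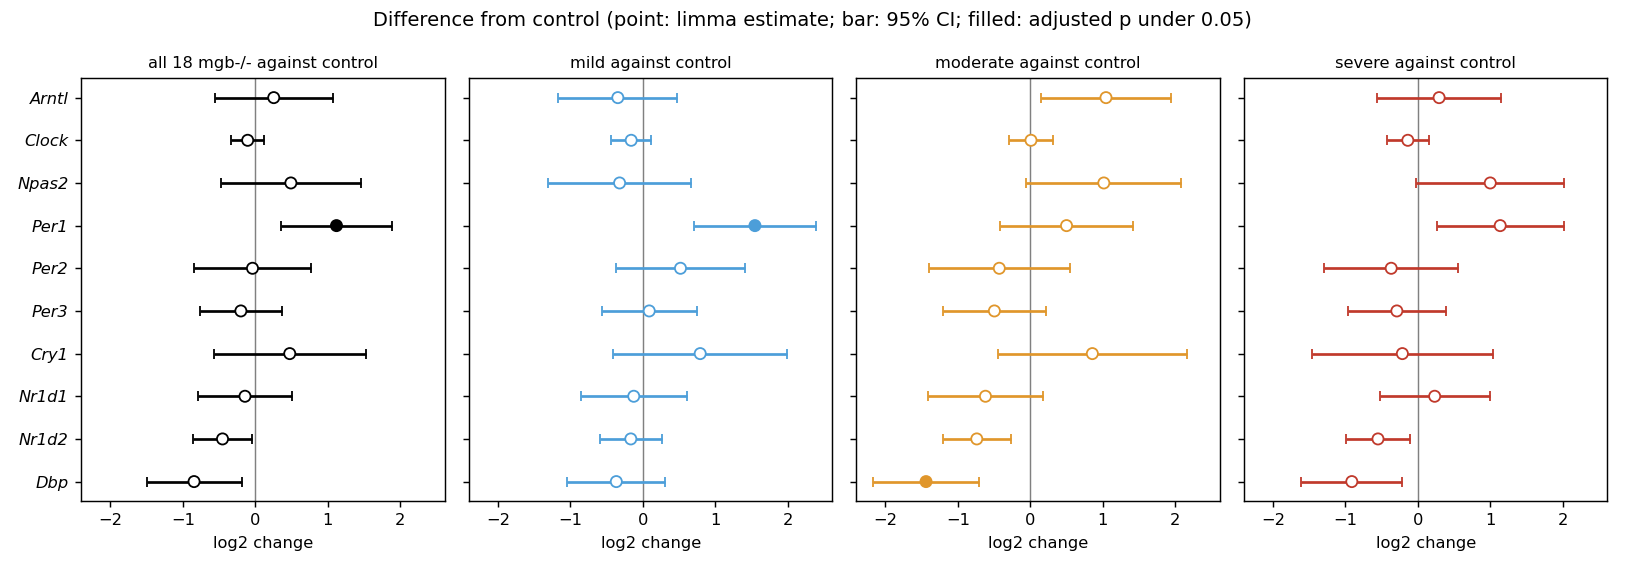
Points are limma's log2 differences from the 6 controls for all 18 *mgb*-/- kidneys and for each grade, bars are 95% confidence intervals, and filled points had an adjusted p under 0.05. The filled points are *Per1* in all *mgb*-/- (1.12) and in mild kidneys (1.55) and *Dbp* in moderate kidneys (-1.44).

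Each grade was then set against the same 6 controls, so the 3 comparisons are not independent of each other. In mild kidneys *Per1* rose and no other member passed, which is 1 of 10 against 6.02% of all genes. The 7 mild kidneys had *Per1* levels from 3.69 to 5.60 with a median of 5.14, and all 7 lay above the control mean of 3.43. The lowest mild kidney, replicate 4, still overlapped the upper controls. The rise was 1.55 (SE 0.41, limma adjusted p = 0.0271), or 2.92-fold, and 1.51, 1.79 and 1.59 within the slides. It was called in 18 of 24 fits without 1 kidney and lost without control replicate 4 (1.24, limma adjusted p = 0.0714) or 5 or mild replicate 2, 5, 6 or 7. With control replicates 4 and 5 left out together the rise was 1.04 (limma adjusted p = 0.168).

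In moderate kidneys *Dbp* was lower than in control, again 1 of 10 members called, against 1.2% of all genes. It was as low or lower in mild replicates 1 and 4 (4.35 and 4.65) and severe replicates 4 to 6 (4.35, 3.71 and 4.13). The 5 moderate kidneys had *Dbp* levels of 4.01, 4.17, 4.35, 4.12 and 4.89. All 5 lay below the lowest control at 5.30, so the groups did not overlap. This held for 1 of 10 members, and how many of all genes did not overlap was not counted. The difference was -1.44 (SE 0.35, limma adjusted p = 0.046), which is 2.71-fold lower, and -1.37, -1.30 and -1.63 within the slides. *Dbp* did not pass with slide as a block (-1.42, limma adjusted p = 0.0596) or with the replicate block (-1.45, limma adjusted p = 0.106). With its second probe, mean *Dbp* was 5.70 ± 0.40 in the control (SD, n = 6) and 4.23 ± 0.52 in the moderate kidneys (SD, n = 5), and there the groups overlapped, at 5.03 in moderate replicate 5 and 5.00 in control replicate 4. Of 24 fits without 1 kidney, 9 kept the call (without mild replicate 1 or 4, moderate 2 or 5, or severe 1, 3, 4, 5 or 6) and 15 lost it, with differences from -1.58 to -1.36 and adjusted p up to 0.161 (without moderate replicate 1, the kidney rich in adrenal markers).

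Beside *Dbp*, *Nr1d2* was at 0.72, 0.65, 0.74, 0.83 and 1.15 in the moderate kidneys and at 0.98 to 1.89 (median 1.78) in the controls. Only moderate replicate 5 reached the control range. The difference was -0.74 (SE 0.23, limma adjusted p = 0.0952). *Arntl* was at -0.36, 0.31, -0.90, -0.40 and -0.68 in the moderate and at -2.18 to -0.79 (median -1.49) in the control kidneys. Control replicate 4 and moderate replicate 3 overlapped, and all 5 moderate kidneys lay above the control mean. The difference was 1.04 (SE 0.43, limma adjusted p = 0.201). *Per1* differed by 0.50 in the moderate kidneys (SE 0.44, limma adjusted p = 0.579).

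In severe kidneys 0 of 10 members passed with limma, against 16.1% of all genes. An unadjusted p under 0.05 was seen for 3 members, beside 8882 of all 27971 genes. *Per1* differed by 1.14 (SE 0.42, limma adjusted p = 0.0676), *Dbp* by -0.91 (SE 0.34, limma adjusted p = 0.0672) and *Nr1d2* by -0.55 (SE 0.22, limma adjusted p = 0.0827). Leaving out 1 kidney brought each of the 3 past the threshold once: *Per1* without severe replicate 6 (1.42, limma adjusted p = 0.0132), *Dbp* without severe replicate 3 (-1.12, limma adjusted p = 0.0272) and *Nr1d2* without control replicate 5 (-0.67, limma adjusted p = 0.0444). *Dbp* ranged from 3.71 to 5.89 in the severe kidneys (median 4.90), with 3 kidneys among the controls and 3 below them.

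Between the grades no member passed. In moderate against mild kidneys limma called 0 of all 27971 genes (0%, 1869 at an unadjusted p under 0.05), and 6 of the 10 members had an unadjusted p under 0.05. Members varied together kidney by kidney, as described below, so the 6 are not independent of each other. Moderate kidneys had higher means of *Arntl* (1.39, SE 0.42, limma adjusted p = 0.523) and *Npas2* (1.33, SE 0.50, limma adjusted p = 0.595). Their means were lower for *Dbp* (-1.07, SE 0.34, limma adjusted p = 0.554), *Per1* (-1.05, SE 0.43, limma adjusted p = 0.645), *Per2* (-0.95, SE 0.45, limma adjusted p = 0.742) and *Nr1d2* (-0.57, SE 0.22, limma adjusted p = 0.598). In severe against mild kidneys limma called 0.586% of all genes and 0 members (1 at an unadjusted p under 0.05, beside 3105 of all genes). *Npas2* did not overlap there, at -8.04 to -5.78 (median -6.11) in mild and -5.61 to -3.84 (median -5.38) in severe kidneys. The difference was 1.32 (SE 0.47, limma adjusted p = 0.295), but its probe was well above background in 1 of 7 mild and 4 of 6 severe kidneys. How many of all genes did not overlap there was not counted. In severe against moderate kidneys limma called 0.00715% of genes and 0 members (1 at an unadjusted p under 0.05, beside 2898 of all genes). *Nr1d1* had the largest difference relative to its error there (0.85, SE 0.38, limma adjusted p = 0.457).

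Most members varied more between kidneys of 1 group than genes usually did. The within-group SD was 0.80 for *Per2*, 0.76 for *Per1*, 0.74 for *Arntl*, 0.65 for *Nr1d1*, 0.60 for *Dbp* and 0.59 for *Per3*, against a median of 0.31 over the 20495 genes well above background on all arrays. Among those genes *Per2* stood at percentile 94.7, *Per1* at 93.3, *Arntl* at 92.9, *Nr1d1* at 89.3, *Dbp* at 86.3 and *Per3* at 85.0. *Nr1d2* stood at percentile 61.8 (SD 0.38) and *Clock* at 31.2 (SD 0.23), the lowest of the 8 members measured on all arrays.

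The spread was shared between genes, kidney by kidney. In the mild group *Arntl* was -0.52 and -0.51 in replicates 1 and 4 and -2.48 to -2.12 in the other 5. *Dbp* was 4.35 and 4.65 in replicates 1 and 4 and 5.58 to 5.91 in the other 5. The same 2 kidneys had *Per1* at 4.24 and 3.69 (others 5.06 to 5.60), *Nr1d1* at -1.50 and -0.98 (others 0.03 to 0.47) and *Nr1d2* at 0.84 and 1.08 (others 1.48 to 1.63). So in replicates 1 and 4 *Arntl* was high where *Dbp*, *Per1*, *Nr1d1* and *Nr1d2* were low, with no overlap with the other 5 in any of the 5 genes. *Clock* (-0.17 and 0.0035, others -0.65 to -0.23) and *Cry1* (-4.45 and -4.22, others -5.30 to -4.61) were higher without overlap. *Per2*, *Per3* and *Npas2* overlapped. The 2 kidneys were picked by their own values, and how many of all genes part them from the other 5 was not counted. Replicate 4 was also the mild kidney with the adrenal sum of 7.58, while that sum was -2.20 in replicate 1.

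In the severe group replicates 4 to 6 also had the higher *Arntl*, without a clear gap. *Arntl* was -2.03, -1.86 and -1.79 in replicates 1 to 3 and -1.04, -0.57 and 0.36 in replicates 4 to 6, and the widest step was the one up to replicate 6. *Dbp* was 5.50, 5.45 and 5.89 against 4.35, 3.71 and 4.13, and *Nr1d2* 1.58, 1.39 and 1.35 against 0.79, 0.31 and 0.63. *Per1* was 5.14, 4.96 and 5.47 against 4.81, 3.86 and 3.13. *Nr1d1* was 0.51, 0.47 and 0.98 against -0.24, -0.93 and 0.44, so that replicate 6 lay beside replicates 1 and 2. All 5 moderate kidneys had *Arntl* at or above -0.90 and *Dbp* at or below 4.89. The kidneys were parted here by their own values, so these differences were not tested. Severe replicate 4 had the array with the lowest share of probes well above background (55.1%). It also had the most outlier spots (660, against 102 to 261 on the other arrays). Severe replicate 5 was the kidney with the lowest kidney and highest leukocyte sums. Mild replicates 1, 4 and 7 shared slide 1, and replicate 7 had the lowest *Arntl* of the group. Severe replicates 1 to 3 lay on slides 3, 1 and 2 and severe replicates 4 to 6 on slides 3, 2 and 3. Replicate numbers carry no order.

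**Figure D3:**
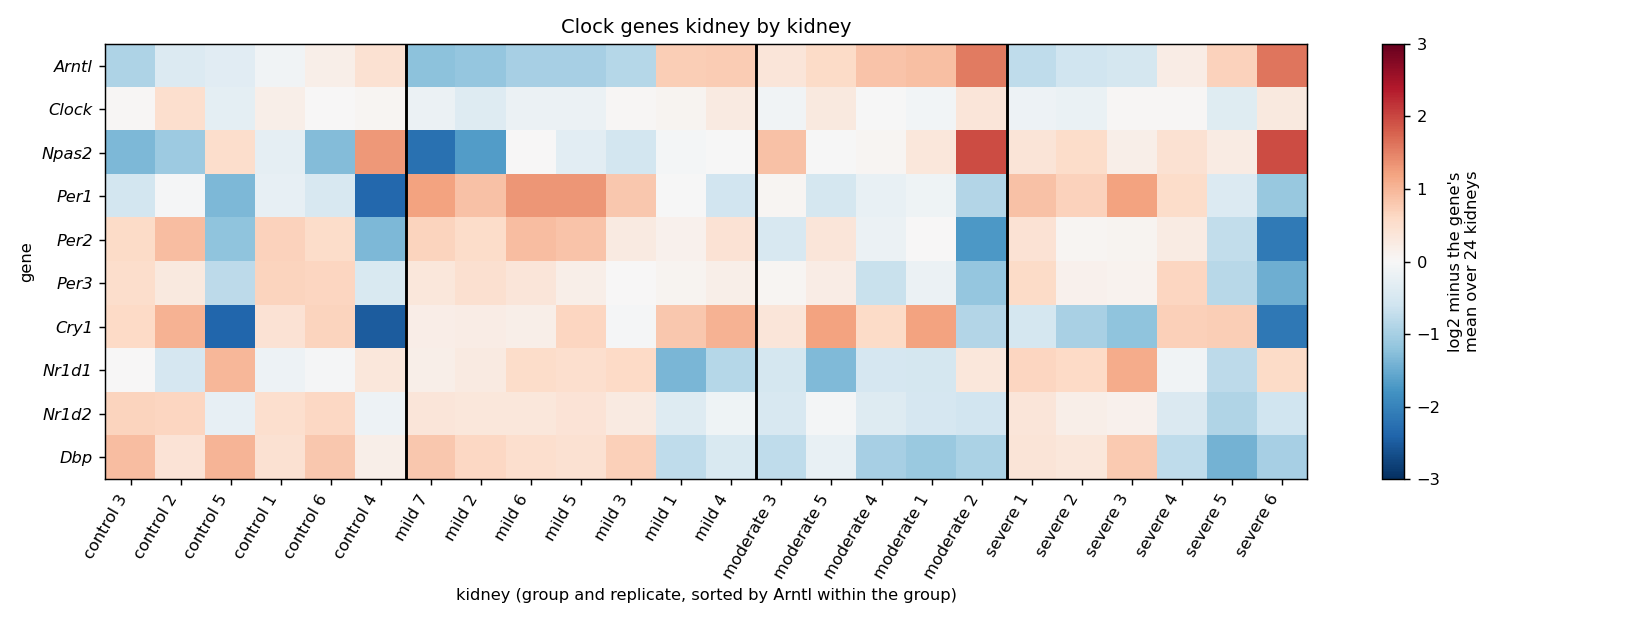
Rows are the 10 clock genes and columns the 24 kidneys, sorted by *Arntl* within each group, and the colour is the log2 value minus the gene's mean over all kidneys. Mild replicates 1 and 4, severe replicates 4 to 6 and the moderate kidneys lie above the gene's mean (red) for *Arntl* and below it (blue) for *Dbp*, and control replicates 4 and 5, moderate replicate 2 and severe replicate 6 are darkest blue for *Per2*.

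The 4 kidneys with the lowest *Per2* came from 3 groups, and moderate replicate 2 and severe replicate 6 among them also had the highest *Arntl*. *Per2* was -1.98 and -1.86 in control replicates 4 and 5, -2.36 in moderate replicate 2 and -2.77 in severe replicate 6, and -1.39 or higher in the other 20. *Per1* was 1.91, 2.91, 3.38 and 3.13 in those 4 kidneys, the 4 lowest levels of the 24. *Npas2* was -4.50, -5.27, -3.83 and -3.84 in them, and the probe stood well above background in all 4. *Per3* was -2.11, -2.42, -2.82 and -3.12 in the same order, and *Cry1* was -7.74, -7.64, -6.13 and -7.41 and not well above background in any of the 4. The 3 highest *Npas2* and the 3 lowest *Cry1* levels of all 24 kidneys were among them, but moderate replicate 3 and severe replicate 2 exceeded control replicate 5 in *Npas2*. *Per3* was as low in severe replicate 5 (-2.47) and moderate replicate 4 (-2.31), and *Cry1* in severe replicates 2 (-6.24) and 3 (-6.46). With those 4 left out, the difference of all *mgb*-/- from control kidneys was 0.77 for *Per1* (limma adjusted p = 0.157) and -0.66 for *Nr1d2* (limma adjusted p = 0.0453), and the one for *Cry1* turned from 0.47 to -0.36 (limma adjusted p = 0.59).

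Correlations with *Arntl* had been planned over all 18 *mgb*-/- kidneys. After the values were seen they were taken instead in the 8 kidneys below (-2.48 to -1.79) and the 10 above (-1.04 to 0.36) the widest gap in *Arntl*. That gap was 0.75 and the next widest 0.67 over a range of 2.84, so the split is not a sharp one. The sets were cut on *Arntl* itself, so the p-values within them are a description only. The cut also narrows the range of *Arntl* within each set, which can weaken r there. The planned r over all 18 kidneys is not given. *Dbp* was 5.45 to 5.91 in the 8 and 3.71 to 4.89 in the 10 kidneys. The 8 were 5 mild and 3 severe kidneys. Within the 8, *Arntl* rose with *Nr1d1* (Pearson r = 0.89, exact permutation p = 0.00067, adjusted over 12 relations p = 0.00804). Spearman's rho was 0.95 (exact permutation p = 0.00114, adjusted p = 0.0137), and r was 0.95 without the 2 kidneys farthest from the *Arntl* median. With *Npas2* r was 0.84 (exact permutation p = 0.00945, adjusted p = 0.0378; rho 0.83, adjusted p = 0.0923), but *Npas2* was well above background in only 3 of these 8 kidneys, so nothing is read from that p. With the grade means subtracted r was 0.59 for *Nr1d1* and 0.50 for *Npas2*, and neither passed. With the slide means subtracted r was 0.35 for *Nr1d1*, which did not pass. Over all 24 kidneys, with each group's mean subtracted, r of *Arntl* with *Nr1d1* was -0.42, the opposite sign. Within the 8, r with *Dbp* and *Per1* was -0.26 and -0.33 (exact permutation p = 0.521 and 0.414). Over all 24 kidneys, with each group's mean subtracted, it was -0.83 and -0.82.

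Within the 10 kidneys with higher *Arntl*, *Per1* fell as *Arntl* rose (Pearson r = -0.85, permutation p = 0.00194, adjusted p = 0.0116; rho = -0.71, adjusted p = 0.105). Without moderate replicate 2 and severe replicate 6, the 2 kidneys farthest from the median, r was -0.63 (exact permutation p = 0.0926). It was weaker there and did not pass, over 8 kidneys with a narrower range of *Arntl*. Without any 1 kidney r stayed between -0.90 and -0.77. With *Npas2* r was 0.72 (permutation p = 0.0218, adjusted p = 0.0655) and with *Nr1d1* 0.61 (permutation p = 0.0571), and both turned negative without those 2 kidneys (-0.62 and -0.37). *Npas2* was well above background in 5 of the 10. With *Dbp* r was -0.30 (permutation p = 0.401). In the 6 controls r ranged from -0.57 for *Dbp* to 0.57 for *Npas2*, with exact permutation p of 0.246 or more. Each slide held at most 4 kidneys of either set, too few for a value of its own.

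**Figure D4:**
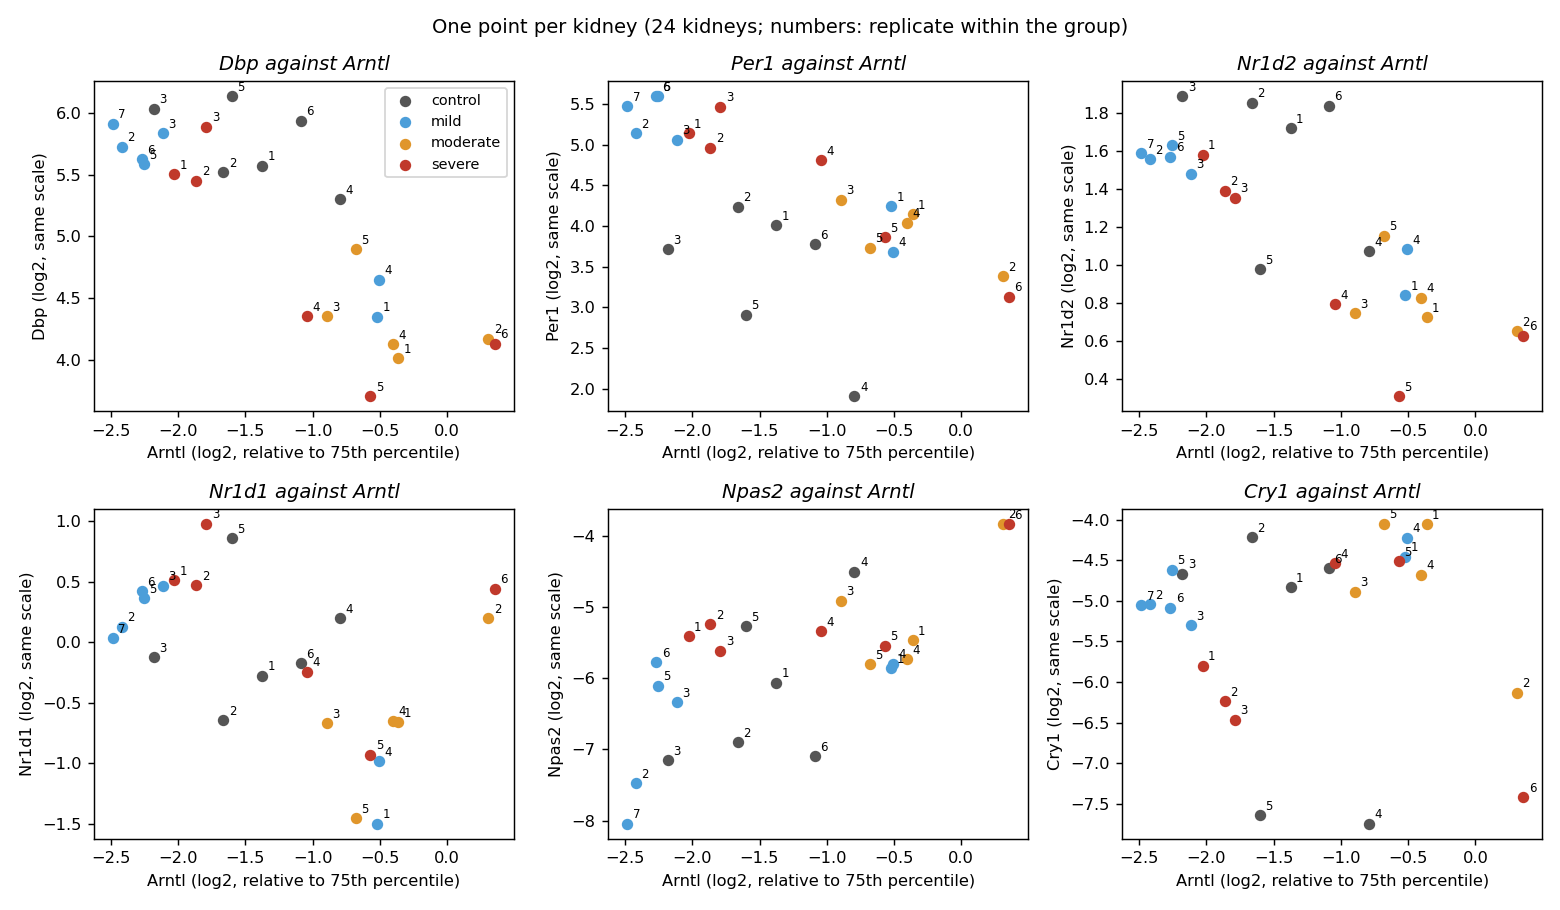
Each point is 1 of 24 kidneys, with *Arntl* on the horizontal and another clock gene on the vertical axis, both in log2 relative to the array's 75th percentile. *Dbp* and *Nr1d2* lie high on the left and low on the right of a gap between -1.79 and -1.04 in the *mgb*-/- kidneys, and moderate replicate 2 and severe replicate 6 lie at the far right.

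After each group's mean was subtracted, the genes most like *Arntl* over the 24 kidneys, among 16282 named genes with a value on every array, were *Rhebl1* (Pearson r = 0.77), *Cdk2ap1* (0.77), *Sox18* (0.76), *Dtwd1* (0.74) and *D11Wsu47e* (0.74). The most opposite were *Ripk4* (-0.86), *Gzmm* (-0.83), *Dbp* (-0.83), *Grasp* (-0.82) and *Per1* (-0.82), so 2 of the 10 members were among the 5 lowest of all genes. Seen from *Per1*, *Arntl* was the lowest of all, and from *Dbp* it was the second lowest. These r follow the pattern described above and share arrays and scaling, so they are given as a description with no p.

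The genes most like *Dbp* were *Uap1* (0.85), *BB287469* (0.82), *Kdm6b* (0.82), *Tob2* (0.81) and *Ppp1r15b* (0.81), and *Nr1d2* was the 14th (0.77). The genes most like *Per1* were *Dnajb4* (0.85), the salt-regulating kinase gene *Sgk1* (0.85), *Rgcc* (0.85), *Klf11* (0.85) and *Noct* (0.83), the last known for its daily rhythm. *Per2* ranked 10th for *Per1* (0.80) and *Nr1d2* 11th (0.79).

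Of 17 further clock genes, all measured, 2 were higher and 1 lower in all *mgb*-/- kidneys than in controls, with a median difference of -0.09. That is 3 of 17, beside 13.3% of all genes called in the same comparison. *Csnk1e*, a casein kinase that marks PER proteins for decay, was higher by 0.68 (SE 0.16, limma adjusted p = 0.0103), and *Nfil3*, a repressor that competes with DBP at D-boxes, by 0.63 (SE 0.18, limma adjusted p = 0.0236). *Fbxl21*, a ligase subunit that acts on CRY proteins, fell by 0.94 (SE 0.23, limma adjusted p = 0.0107), and all 18 *mgb*-/- kidneys lay below the control mean. *Bhlhe40*, a repressor at E-boxes, was higher in mild kidneys by 1.19 (SE 0.25, limma adjusted p = 0.00898), where *Csnk1e* was too (0.71), 2 of 17 beside 6.02% of all genes. In moderate kidneys 0 of the 17 passed with limma, beside 1.2% of all genes called. At an unadjusted p under 0.05 there were 3 of the 17, beside 5157 of all 27971 genes. In severe kidneys, where 16.1% of all genes were called, *Csnk1e* (0.73), *Fbxl21* (-1.19) and *Fbxw11* (-0.43) did. The DBP relatives *Tef* and *Hlf* differed by -0.23 and -0.09 in all *mgb*-/- kidneys and did not pass.

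Of 15 genes whose daily timing is known in kidney or other tissues, 4 were higher and 1 lower in all *mgb*-/- kidneys, with a median difference of 0.39. That is 5 of 15, beside 13.3% of all genes. The 4 were *Cldn4*, a tight junction gene (1.79, SE 0.48, limma adjusted p = 0.017), *Sgk1* (1.17, SE 0.34, limma adjusted p = 0.0261), the water channel gene *Aqp2* (0.91, SE 0.25, limma adjusted p = 0.0194) and the taurine transporter gene *Slc6a6* (0.49, SE 0.15, limma adjusted p = 0.0345). *Por*, the electron donor of cytochrome P450 enzymes, was lower (-0.71, SE 0.17, limma adjusted p = 0.009). By grade, 2 of the 15 were higher in mild kidneys (*Sgk1* and *Aqp2*). In severe kidneys 2 were higher (*Aqp2* and *Cldn4*) and 1 lower (*Por*). In moderate kidneys 0 passed with limma (4 at an unadjusted p under 0.05). Of all genes, 6.02%, 16.1% and 1.2% were called there. *Slc6a6* passed in no single grade. *Sgk1* is also on the glucocorticoid-responsive list and *Aqp2* among the kidney markers.

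Beside *Per1*, genes of acute response were also higher. All 10 immediate early genes rose in *mgb*-/- kidneys (13.3% of all genes were called in either direction), with a median of 2.64, from *Ier2* at 1.15 to *Egr2* at 4.15. Their summed level was 3.94 to 4.47 in control and 5.38 to 7.41 in *mgb*-/- kidneys, with no overlap. In mild replicates 1 and 4 that sum was 7.28 and 5.99, inside the 5.87 to 7.41 of the other 5 mild kidneys. Of 8 glucocorticoid-responsive genes, *Per1* included, 5 rose in all *mgb*-/- kidneys. By grade, 5 rose in mild kidneys, 1 in moderate kidneys and 3 in severe kidneys, beside 6.02%, 1.2% and 16.1% of all genes called. The 1 in moderate kidneys was *Dusp1*, which is on the immediate early list too. Without *Per1*, the sum of the other 7 was 5.35, 5.52, 5.74 and 5.89 in control replicates 4 and 5, moderate replicate 2 and severe replicate 6, the 4 lowest of the 24 kidneys. The part of either response in the *Per1* level was not tested.

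Urothelial markers were higher in severe kidneys, where 6 of 6 passed against control and 5 of 6 against mild kidneys. Of all genes, 16.1% and 0.586% were called in these 2 comparisons. In moderate kidneys 1 of 6 passed (*Krt14*), and in mild kidneys 0 with limma (0 at an unadjusted p under 0.05), beside 1.2% and 6.02% of all genes called. The urothelial sum was 2.64 to 4.20 in control, 2.30 to 5.84 in mild, 3.77 to 5.73 in moderate and 6.14 to 7.85 in severe kidneys (6 of 6 measured). More (or fewer) cells of a type cannot be told apart from more (or less) RNA per cell in whole kidney. Urothelial sums were 2.30 and 4.48 in mild replicates 1 and 4 and 2.70 to 5.84 in the other mild kidneys. They were 6.47 to 7.85 in severe replicates 1 to 3 and 6.14 to 7.13 in severe replicates 4 to 6, so within both grades this sum overlapped between the kidneys with higher and with lower *Arntl*. Of 5 fibroblast and smooth muscle markers 1 passed in severe kidneys (*Acta2*), near the 16.1% of all genes called there. With limma, 0 passed in mild and 0 in moderate kidneys (0 and 1 at an unadjusted p under 0.05, beside 5976 and 5157 of all 27971 genes). Of the 5 leukocyte markers measured 0 passed in any grade against control with limma (1 at an unadjusted p under 0.05, in moderate kidneys). The fibroblast and smooth muscle sum was 4.49 to 5.12 in control, 4.88 to 5.56 in mild, 3.82 to 6.66 in moderate and 5.21 to 7.14 in severe kidneys, and the part of these cells in the clock genes' levels was not tested.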

How the data were processed

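Whole-kidney total RNA from 24 kidneys of male mice (6 control, 18 *mgb*-/-) had been labelled with Cy3 and hybridized to Agilent 8x60K mouse arrays. The authors deposited, per array, the output of Agilent Feature Extraction 10.10 (per the submitters' processing notes), whose processed signal is an intensity after background subtraction, not normalized between arrays, and a table of intensities they had normalized by a method not given in the sources used here. Groups came from the labels. The processed signal was converted to log2, outlier spots were removed and the 75th percentile of the non-control spots on that array was subtracted. Of 55681 probes, 38848 passed a filter (well above background on 5 arrays or more), 26762 probes were named through RefSeq accessions (GRCm38.p6), and the brightest probe stood for each of 27971 genes, 16506 with a symbol. A value was missing on some array for 324 genes. The array design uses another build, so no array coordinates are given.

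Groups were compared with limma 3.58.1 (R 4.3.3), with 2 groups for all *mgb*-/- against control and 4 groups for the grades, and Benjamini-Hochberg adjustment over all genes. A call was an adjusted p under 0.05. The steps were tested on simulated data. Permutations over kidneys were exact except in the full set of 10 kidneys, which took 100000 draws (NumPy 2.4.6, Python 3.11.15), two-sided. Correlations had been planned over 18 kidneys and were taken in 2 sets, split at the widest gap in *Arntl*, after the values were seen. The number of arrays limits the precision. The slide was read from the array. Replicate numbers were not treated as pairs. Of 33 same-numbered pairs, 10 had correlated deviations over 0.1 (r from -0.55 to 0.65). Their median r was 0.0046, beside 0.0036 for other numbers, which does not exclude that some kidneys came from 1 mouse. Alternatives were quantile or median scaling, normexp with an offset of 50 (on the median signal, as the files lack the mean), the authors' table, filters, averaging over probes of a gene, slide or replicate blocks, array weights, other thresholds, other groups in the fit and each kidney left out. The members, the gene lists, the rule naming the 5 genes most like *Arntl*, *Dbp* and *Per1*, and the tests were chosen with earlier results of these data known.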

Additional observations from a re-analysis of the deposited data

Results flagged for a closer look

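*Npas2* in severe replicate 6 was -3.84, while the other 5 severe kidneys lay between -5.61 and -5.24, and this gap was too large a share of the group's range for 6 samples by Dixon's criterion. It was the 1 value so marked among 40 sets of a member in a group, where chance marks about 1 in 20 groups. The same kidney had the highest *Arntl* and the lowest *Per2* and *Per3* of the 24.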

How the results depend on the processing

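Every call of a member depended on the setting. In all *mgb*-/- against control kidneys the count of 1 became 0 without a filter on dim probes, with slide as a block and with the replicate block, and 2 (*Per1* and *Dbp*) with the mean of the 3 grades or at an adjusted p under 0.1; without 1 kidney it was 0 to 1. Where the count stayed 1 the gene was not always *Per1*: it was *Dbp* with scaling by the array median and *Nr1d2* without the 4 kidneys with the lowest *Per2* or without controls 4 and 5, so *Per1* was called in 8 of 14 other settings. In mild kidneys the 1 became 0 with scaling by the array median, the replicate block, without the 4 kidneys with the lowest *Per2* and without controls 4 and 5 (0 to 1 without 1 kidney), and *Per1* was called in 10 of 14. In moderate kidneys the 1 became 0 with quantile normalization, no filter, slide as a block, the replicate block and without mild 4 and moderate 1, and 2 with array weights or at an adjusted p under 0.1 (0 to 2 without 1 kidney). Without the 4 kidneys or controls 4 and 5 the 1 was *Nr1d2*, and *Dbp* was called in 7 of 14. In severe kidneys the 0 became 1 with quantile normalization, the authors' table, array weights (*Per1* in each) or probes above background on all 24 arrays (*Dbp*), 2 with median scaling or without controls 4 and 5, and 3 without the 4 kidneys or at an adjusted p under 0.1 (0 to 1 without 1 kidney). The 3 comparisons between grades stayed at 0 in all settings run (0 to 0 without 1 kidney). The replicate block, on numbers not known to pair kidneys, gave *Per1* 1.07 (limma adjusted p = 0.0841) in all *mgb*-/- kidneys, 1.46 (0.0855) in mild, and *Dbp* -1.45 (0.106) in moderate kidneys. The sign never turned for *Per1* in mild, *Dbp* and *Nr1d2*. It turned in all *mgb*-/- kidneys with array weights for *Arntl* (-0.15), *Per2* (0.094) and *Nr1d1* (0.11), without the 4 kidneys or without controls 4 and 5 for *Nr1d1* (0.073 and 0.13) and *Cry1* (-0.36 and -0.57), and without controls 4 and 5 for *Per1* in moderate kidneys (-0.0091). Without 1 kidney *Per2* ranged from -0.31 to 0.14 and *Nr1d1* from -0.27 to 0.033. Scaling by the array median moved the median of all genes by -0.16 and the share of higher genes among those called from 40.0% to 17.7% in all *mgb*-/- kidneys, from 50% to 28.8% in mild, from 53.9% to 30.8% in moderate and from 40.7% to 22.5% in severe kidneys.

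In the 8 kidneys with lower *Arntl*, median scaling gave r with *Dbp* 0.35, with *Per1* 0.15 and with *Npas2* 0.63, the slide mean subtracted gave *Nr1d1* 0.35, and the grade mean subtracted *Nr1d1* 0.59 and *Npas2* 0.50. In the 10 with higher *Arntl*, median scaling gave *Dbp* 0.12, *Nr1d1* 0.71 and *Per1* -0.55, the authors' table *Dbp* -0.66, the slide mean subtracted *Nr1d1* 0.71, the grade mean subtracted *Dbp* -0.72 and *Nr1d1* -0.15, and normexp *Npas2* 0.32. Without 1 kidney, r in the 8 ranged from -0.72 to 0.018 for *Dbp*, 0.84 to 0.97 for *Nr1d1*, 0.77 to 0.91 for *Npas2* and -0.61 to -0.10 for *Per1*. In the 10 it ranged from -0.46 to -0.24 for *Dbp*, 0.38 to 0.83 for *Nr1d1*, 0.56 to 0.83 for *Npas2* and -0.90 to -0.77 for *Per1*. Omitting the 4 kidneys, the pairs of kidneys and the split by *Arntl* were chosen after seeing the data. Signal over background limits *Npas2* and *Cry1*, which were not well above background on 14 and 8 of 24 arrays.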
